A study of Arabidopsis thaliana with 10 samples.

Results

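The genes described here are the 8 nuclear *Arabidopsis thaliana* genes for the minor antenna of photosystem II and for the antenna of photosystem I. Their loops were taken from ChIA-PET, which finds DNA contacts as paired-end tags (PETs) after cross-linked chromatin is pulled down with an antibody and nearby ends are joined. The tissue was shoots of 2-week-old wild-type Col-0 seedlings, with no treatment or mutation in any group. The 5 groups were defined by the antibody: H3K4me3, found at active promoters, RNAPII, the polymerase II enzyme that transcribes protein-coding genes, H3K4me1, found along active gene bodies, H3K27me3, the Polycomb mark, and H3K9me2, the mark of heterochromatin. Each group had 2 labelled replicates, pooled by the authors into 1 list of called loops, so no spread between replicates could be measured. A loop joins 2 anchors, the ChIP-seq peaks between which PETs were counted. A loop was assigned to a gene when an anchor overlapped its locus by at least 1 bp, and the locus ran from 1 kb upstream of the annotated start site to the end of the gene. The 8 genes are 8 of 27444 nuclear protein-coding genes, and their loci held 317 of the 59276 loops in the 5 lists.

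Light-harvesting complex (LHC) proteins bind chlorophyll and carotenoids and pass excitation energy to the reaction centres. *LHCB4.1* and *LHCB4.2* encode CP29, *LHCB5* encodes CP26 and *LHCB6* encodes CP24, the monomeric antenna proteins that lie between the photosystem II core and its trimeric antenna. *LHCA1*, *LHCA2*, *LHCA3* and *LHCA4* encode the belt of antenna proteins bound to one side of photosystem I, and antenna genes of this kind are among the most strongly transcribed nuclear genes of green tissue, under the control of light and of the circadian clock.

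*LHCB4.1* (AT5G01530) lies on chromosome 5 from 208866 to 210548, *LHCB4.2* (AT3G08940) on chromosome 3 from 2717557 to 2718923 and *LHCB5* (AT4G10340) on chromosome 4 from 6408007 to 6409849, all on the plus strand of TAIR10. *LHCB6* (AT1G15820) lies on chromosome 1 from 5446462 to 5447880 on the minus strand. *LHCA1* (AT3G54890) lies on the minus strand of chromosome 3 from 20339504 to 20341176, *LHCA2* (AT3G61470) on the plus strand of chromosome 3 from 22745514 to 22747444, *LHCA3* (AT1G61520) on the plus strand of chromosome 1 from 22699715 to 22701412, and *LHCA4* (AT3G47470) on the minus strand of chromosome 3 from 17493343 to 17495033. The 8 genes are therefore spread over 4 of the 5 chromosomes, and no 2 of them are neighbours.

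The 250 bases before the start site are shown for the 2 genes with the most H3K4me3 partner anchors, *LHCB6* and *LHCA1*, and the 2 with the fewest, *LHCB4.2* and *LHCA2*, since these promoters lie in or beside the anchors that carried the contrast in loop number. Capitals mark matches on either strand to 6 short motifs: the G-box CACGTG, the I-box GATAAG, the CCAAT box, the evening element AAATATCT, the CCA1 site AAAAATCT and the TATA box TATAAA. The sequences are read along the direction of transcription from the RefSeq TAIR10.1 assembly, at chr1:5447881-5448130 (minus strand) for *LHCB6*, chr3:20341177-20341426 (minus) for *LHCA1*, chr3:2717307-2717556 (plus) for *LHCB4.2* and chr3:22745264-22745513 (plus) for *LHCA2*.
LHCB6: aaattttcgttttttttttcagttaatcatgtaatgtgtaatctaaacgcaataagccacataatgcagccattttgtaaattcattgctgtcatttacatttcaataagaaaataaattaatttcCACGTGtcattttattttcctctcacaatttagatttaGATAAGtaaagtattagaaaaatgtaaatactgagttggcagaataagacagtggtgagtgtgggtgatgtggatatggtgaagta
LHCA1: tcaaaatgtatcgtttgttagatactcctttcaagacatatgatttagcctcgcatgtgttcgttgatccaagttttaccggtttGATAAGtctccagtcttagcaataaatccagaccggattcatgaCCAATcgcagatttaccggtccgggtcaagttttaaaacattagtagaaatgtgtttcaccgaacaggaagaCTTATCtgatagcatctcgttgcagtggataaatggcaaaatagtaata
LHCB4.2: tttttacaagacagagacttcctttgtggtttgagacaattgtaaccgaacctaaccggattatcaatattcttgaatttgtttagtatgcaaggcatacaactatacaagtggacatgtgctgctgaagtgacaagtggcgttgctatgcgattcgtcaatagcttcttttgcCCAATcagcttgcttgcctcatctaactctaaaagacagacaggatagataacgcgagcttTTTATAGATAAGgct
LHCA2: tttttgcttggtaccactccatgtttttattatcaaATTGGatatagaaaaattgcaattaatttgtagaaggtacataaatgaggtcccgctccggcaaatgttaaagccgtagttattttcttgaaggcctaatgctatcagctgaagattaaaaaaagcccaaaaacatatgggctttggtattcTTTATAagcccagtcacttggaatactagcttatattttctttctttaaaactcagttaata
The *LHCB6* promoter held 1 G-box and 1 I-box, and that of *LHCA1* held 2 I-boxes, 1 on each strand, and 1 CCAAT box. *LHCB4.2* had a TATAAA match on the opposite strand and an I-box that abut each other just before the start site. Farther upstream it had 1 CCAAT box. *LHCA2* had 1 CCAAT box and 1 TATAAA match, both on the opposite strand. No matches of different motifs overlapped in any of the 8 promoters.

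Among the 8 promoters the G-box was found in 3 (*LHCB4.1*, *LHCB6* and *LHCA4*), against 6.49% of the 27443 promoters of this length in the genome. The I-box was also found in 3 (*LHCB4.2*, *LHCB6* and *LHCA1*), against 12.3% of promoters. The CCAAT box was found in 7 of the 8, all but *LHCB6*, against 46.0%. A match to the TATA box on either strand was found in 3 (*LHCB4.2*, *LHCA2* and *LHCA3*), against 47.3%. Only that of *LHCA3* read along the direction of transcription, from 28 to 23 bases before the start site. The CCA1 site was found in *LHCA4* alone, against 6.69%, and the evening element in none of the 8, against 4.79%. Motif and loop number can be read side by side: the I-box was present in both genes with the most H3K4me3 partners and also in *LHCB4.2*, which had the fewest partners after *LHCA2*.

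Over the whole series the lists differed in size and in the lowest PET count kept, which bears on every comparison between antibodies. The lists held 6310 to 14465 loops, with 14465 for H3K4me3 and 13633 for RNAPII. A loop within a chromosome needed at least 6 PETs to be kept for H3K4me3 and 4 for RNAPII, and one between chromosomes needed 8 and 6. Of 6 root genes 5 had an H3K27me3 loop, against 19.0% of all protein-coding genes. The other 1, *SCR*, had loops in the H3K4me3 and RNAPII lists. These 6 genes were chosen with earlier results of these data known, so their loops are no test of the tissue. The H3K4me3 anchor of *SCR* also overlapped *SUA*, so its loops cannot be assigned to *SCR* alone.

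All 8 antenna genes carried loops in both the H3K4me3 and the RNAPII lists, and none carried an H3K27me3 or H3K9me2 loop. Of all protein-coding genes, 43.5% had an H3K4me3 loop, 27.1% an RNAPII loop and 19.0% both. With the genes of either repressive list left out, 18.0% had both, and again all 8 antenna genes were among them. In the H3K4me1 list 1 of the 8 genes had a loop, against 33.3% of all genes. In the H3K27me3 list 0 of 6310 loops touched the 8 loci, which allows a share of up to 0.0475%, and in the H3K9me2 list 0 of 11513, which allows up to 0.0261%. The background for these lists was 19.0% of genes with an H3K27me3 loop and 1.42% with an H3K9me2 loop.

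The 8 loci took 205 of the 14465 H3K4me3 loops (1.42%, exact 95% interval 1.23 to 1.62%) with 1699 PETs, and 111 of the 13633 RNAPII loops (0.814%, 0.670 to 0.980%) with 906 PETs. The single H3K4me1 loop had 9 PETs. In such bulk tissue, fewer cells with a contact and rarer contacts per cell cannot be told apart. These intervals, and all others given here, are exact intervals that cover counting error only, and loops that share an anchor are not independent of each other.

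The number of partners, the distinct anchors joined to a gene, varied far more among the 8 genes in the H3K4me3 list than in the RNAPII list. In the H3K4me3 list *LHCB6* had 86 partners and *LHCA1* 51, followed by *LHCA4* with 17, *LHCA3* with 15, *LHCB5* with 14, *LHCB4.1* with 10, *LHCB4.2* with 8 and *LHCA2* with 4. The Poisson interval of *LHCB6* (68.8 to 106) did not reach that of *LHCA1* (38.0 to 67.1), and neither reached that of *LHCA4* (9.90 to 27.2). Below these, each gene's interval overlapped that of its neighbour in the order, down to 1.09 to 10.2 for *LHCA2*. For RNAPII the order was *LHCB6* with 22, *LHCB4.1* with 18, *LHCA4* with 16, *LHCA3* with 13, *LHCA2* with 12, *LHCA1* with 11, *LHCB5* with 10 and *LHCB4.2* with 9. The highest and the lowest interval of this list, 13.8 to 33.3 for *LHCB6* and 4.12 to 17.1 for *LHCB4.2*, overlapped. Overlap of separate intervals is no test of a difference, so the RNAPII order is given as a description only. With only loops of a deposited FDR below 0.001, *LHCB6* had 5 and *LHCA1* 2 H3K4me3 partners, against 1 to 5 in the other 6 genes, and RNAPII partners fell to between 0 and 3. With the same PET minimum in both lists (6 within and 8 between chromosomes), the H3K4me3 numbers were unchanged and the RNAPII numbers lay between 4 and 12.

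**Figure D1:**
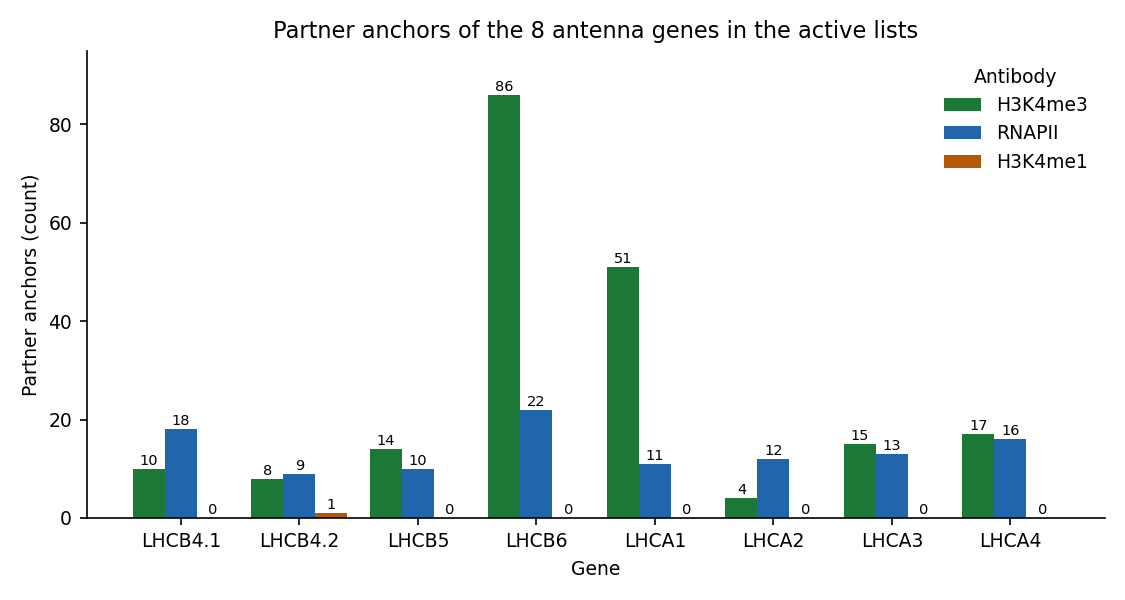
Number of partner anchors (vertical axis, count) of each of the 8 antenna genes in the H3K4me3, RNAPII and H3K4me1 lists, 1 bar per gene and list with its value above. *LHCB6* (86) and *LHCA1* (51) stand above the other 6 genes in the H3K4me3 list, while the RNAPII bars lie between 9 and 22.

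The median was 14.5 H3K4me3 partners and 12.5 RNAPII partners over the 8 genes, against 2 and 3 over all protein-coding genes with a loop in the list. With a hub taken as a gene with 5 or more partners, 7 of the 8 genes were H3K4me3 hubs, against 8.16% of all genes, and all 8 were RNAPII hubs, against 11.2%. *LHCA2* was the gene that was no H3K4me3 hub. At an FDR below 0.001 these numbers were 3 and 0. The shares of all genes given here are for the full lists, so they cannot be set beside the 3 and 0. None was a hub in the other lists, against 8.75% of genes for H3K4me1, 6.86% for H3K27me3 and 0.598% for H3K9me2. Partner numbers in the 2 lists had a Spearman rho of 0.452 over the 8 genes, a description only, and 5 of the 8 genes had more H3K4me3 than RNAPII partners. With the common PET minimum 7 of the 8 did, since *LHCB4.1* (10 and 9) and *LHCB4.2* (8 and 6) turned direction, and *LHCA2* (4 and 8) had more RNAPII partners.

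The anchors over the 8 genes had many tags, the single reads that fall in an anchor. Among 9613 H3K4me3 anchors, that of *LHCB6* ranked 2 by tags, with 25709, and 2 by partners. The *LHCA1* anchor ranked 15 by tags, with 22030, and 12 by partners. *LHCA2* had the fewest tags of the 8, 6762, and ranked 1354 by partners. Genes with more tags thus tended to have more partners. Over the 8 genes tags and partners had a Spearman rho of 0.905 for H3K4me3 and 0.690 for RNAPII, against 0.650 over all 9613 H3K4me3 anchors and 0.858 over all 4520 RNAPII anchors. Tags and PETs come from the same libraries, and the part of antibody enrichment in these partner numbers was not tested. The 8 RNAPII anchors ranked between 250 (*LHCB6*) and 753 (*LHCB4.2*) by partners, with 4158 to 8508 tags.

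**Figure D2:**
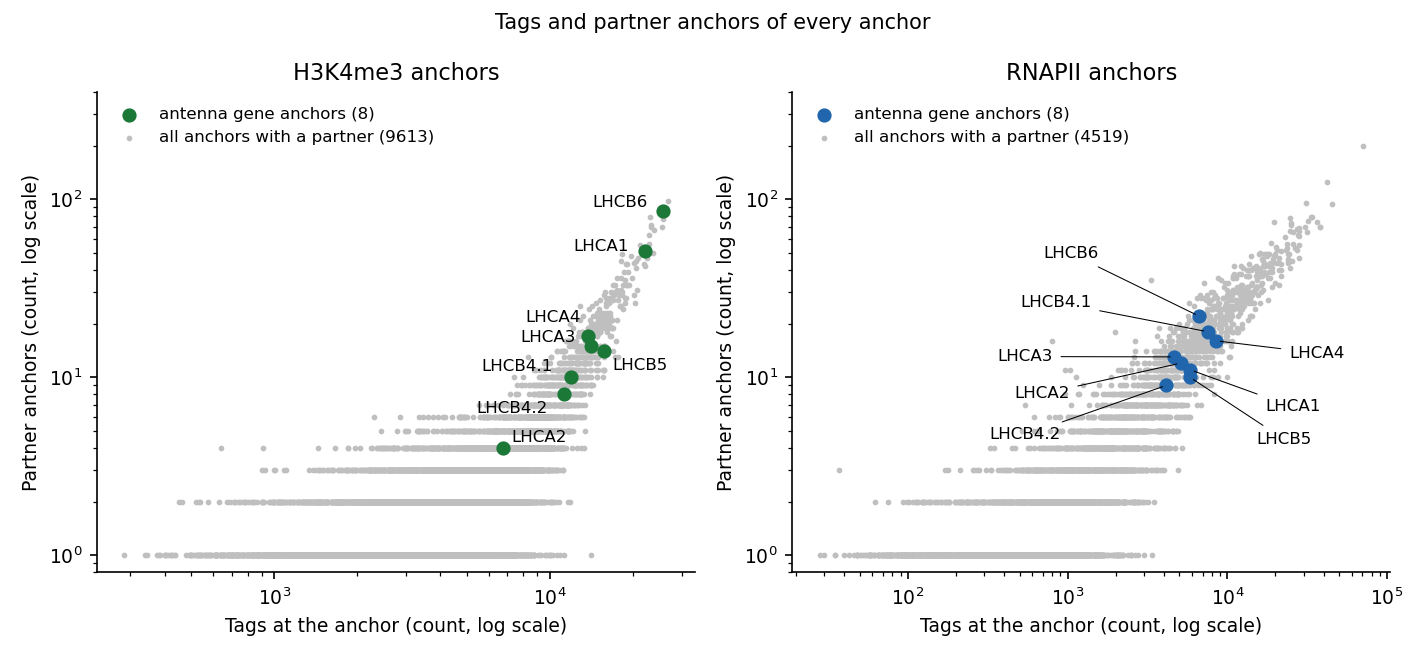
Tags in an anchor (horizontal axis, count, log scale) against its number of partner anchors (vertical axis, count, log scale), for the H3K4me3 list (left) and the RNAPII list (right), with the 8 antenna gene anchors in colour and every anchor with a partner in grey. In the H3K4me3 list *LHCB6* and *LHCA1* sit near the top of the whole distribution, with 25709 and 22030 tags, while in the RNAPII list the 8 genes lie together well below its upper end.

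Each gene had a single anchor in each of these lists, and the anchors covered most or all of the gene. For *LHCB4.1*, *LHCB4.2*, *LHCB5*, *LHCA2*, *LHCA3* and *LHCA4* the H3K4me3 anchor began between 112 bp upstream and 104 bp downstream of the start site. It covered the whole gene body except in *LHCA2* (92.0%) and *LHCA3* (93.9%), and the whole coding sequence in all 8 genes. All annotated exons of the longest transcript lay inside the H3K4me3 anchor in 7 of the 8 genes, and 3 of 4 exons in *LHCA2*. The 2 genes with the most partners differed from this pattern, since their H3K4me3 anchors reached far upstream. That of *LHCB6* was 4258 bp wide, ran from 2130 bp upstream to 2127 bp downstream of the start site and also overlapped AT1G15810, AT1G15825 and AT1G15830. That of *LHCA1* was 3335 bp wide, ran from 1413 bp upstream to 1921 bp downstream and also overlapped AT3G54880 and *CXIP1*. The H3K4me3 anchors of *LHCB4.2* (AT3G08943), *LHCB5* (AT4G10330), *LHCA3* (AT1G61540) and *LHCA4* (*ATSMC2*) also overlapped a neighbour. Only those of *LHCB4.1* and *LHCA2* overlapped no other gene. Loops of the shared anchors cannot be told apart between the antenna gene and its neighbours. The same limit held for RNAPII, where the anchors of *LHCB4.1* (5162 bp, shared with *LECRKA4.1*, a lectin receptor kinase gene) and *LHCA4* (4544 bp, shared with *ATSMC2* and AT3G47480) were the widest. Only the RNAPII anchor of *LHCA2* overlapped no other gene.

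**Figure D3:**
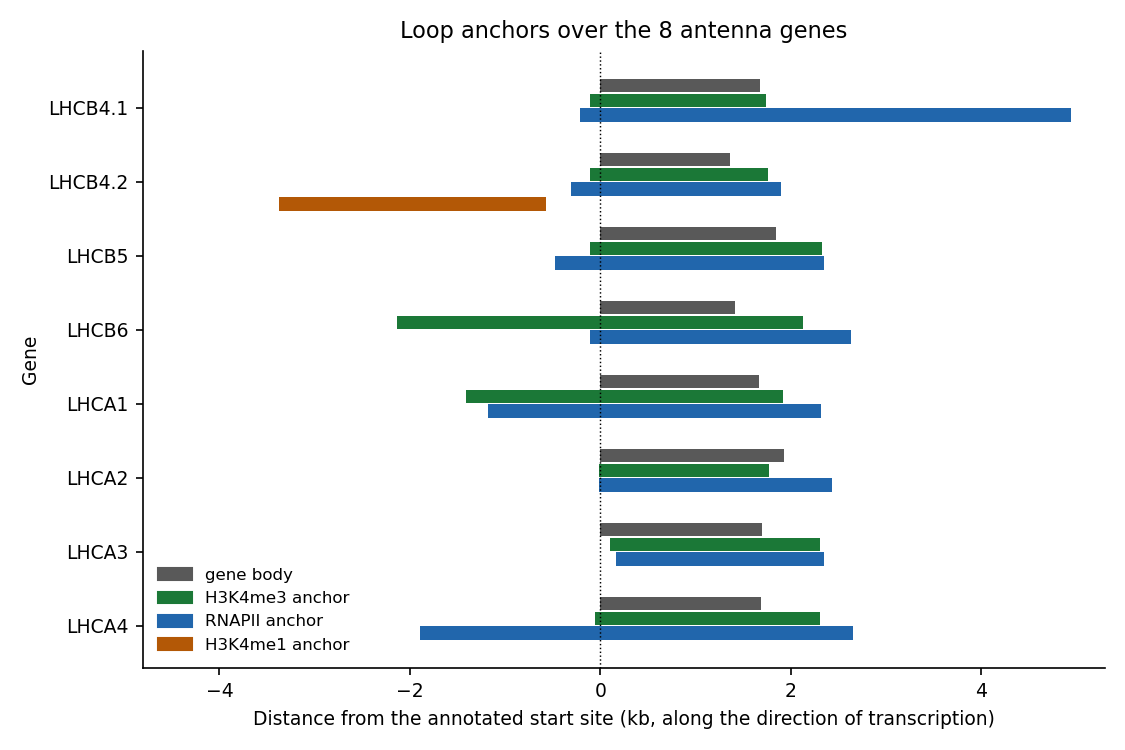
Extent of the H3K4me3, RNAPII and H3K4me1 anchors and of the gene body (1 row of bars per gene), plotted as distance from the annotated start site in kb along the direction of transcription (horizontal axis). The H3K4me3 anchors of *LHCB6* and *LHCA1* begin 2130 bp and 1413 bp upstream, while those of the other 6 genes begin within 112 bp of the start site.

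Long spans were common among the loops of the antenna genes. Of the 205 H3K4me3 loops, 68 joined different chromosomes (33.2%, 26.8 to 40.1%), against 8.61% of the whole list. The median span of the other 137 was 3852 kb (interval 2083 to 5834 kb), against 11.3 kb for the list, and 89 of them (65.0%) spanned over 1 Mb, against 25.4%. The RNAPII list, in which long loops were more frequent, showed a smaller gap. There 59 of 111 loops joined different chromosomes (53.2%, 43.4 to 62.7%), against 42.2% of the list, and the median span within chromosomes was 2063 kb (79.6 to 3995 kb), against 529 kb. Of these 52 loops within chromosomes, 30 spanned over 1 Mb (57.7%), against 46.5% of the list.

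The 8 genes divided unevenly over near and far contacts. *LHCB6* and *LHCA1* held 36 and 23 of the 68 interchromosomal H3K4me3 loops, *LHCB5* and *LHCA4* held 3 each, *LHCA3* held 2 and *LHCB4.1* held 1. *LHCB4.2* and *LHCA2* had none. Every gene had interchromosomal RNAPII loops, from 4 in *LHCA1* and *LHCA2* to 12 in *LHCB6*. *LHCA2* was the most local gene in the H3K4me3 list, with all 4 loops between 3.72 and 14.8 kb, but in the RNAPII list it had 7 of 12 loops over 1 Mb or between chromosomes. *LHCB5* had no RNAPII loop under 100 kb and 10 over 1 Mb or between chromosomes. The median span of *LHCA1* H3K4me3 loops was 10943 kb, and 15 of its 28 loops within chromosome 3 were longer than 10 Mb, as were 15 of the 50 loops of *LHCB6* within chromosome 1.

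Near and far loops differed in the strength of their calls. Of the 34 H3K4me3 loops under 100 kb at the 8 genes, 26 had a deposited FDR below 0.001 (76.5%), against 91.1% of such loops in the list. Of the 157 that spanned over 1 Mb or joined chromosomes, 1 did (0.637%), against 5.08%. The far loops were therefore called with FDR values closer to the limit of 0.05 kept by the authors, with a median of 0.0243. In the RNAPII list 10 of 20 loops under 100 kb had an FDR below 0.001 (50.0%), against 75.9%, and 1 of 89 far loops did (1.12%), against 1.51%. The 2 far loops that met this limit were an 11096 kb H3K4me3 loop of 9 PETs from *LHCB5* to AT4G37180, which encodes a homeodomain-like protein (FDR 0.000434), and an RNAPII loop of 14 PETs from *LHCA2* to AT2G30020 on chromosome 2, a protein phosphatase 2C gene (FDR 0.000809).

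**Figure D4:**
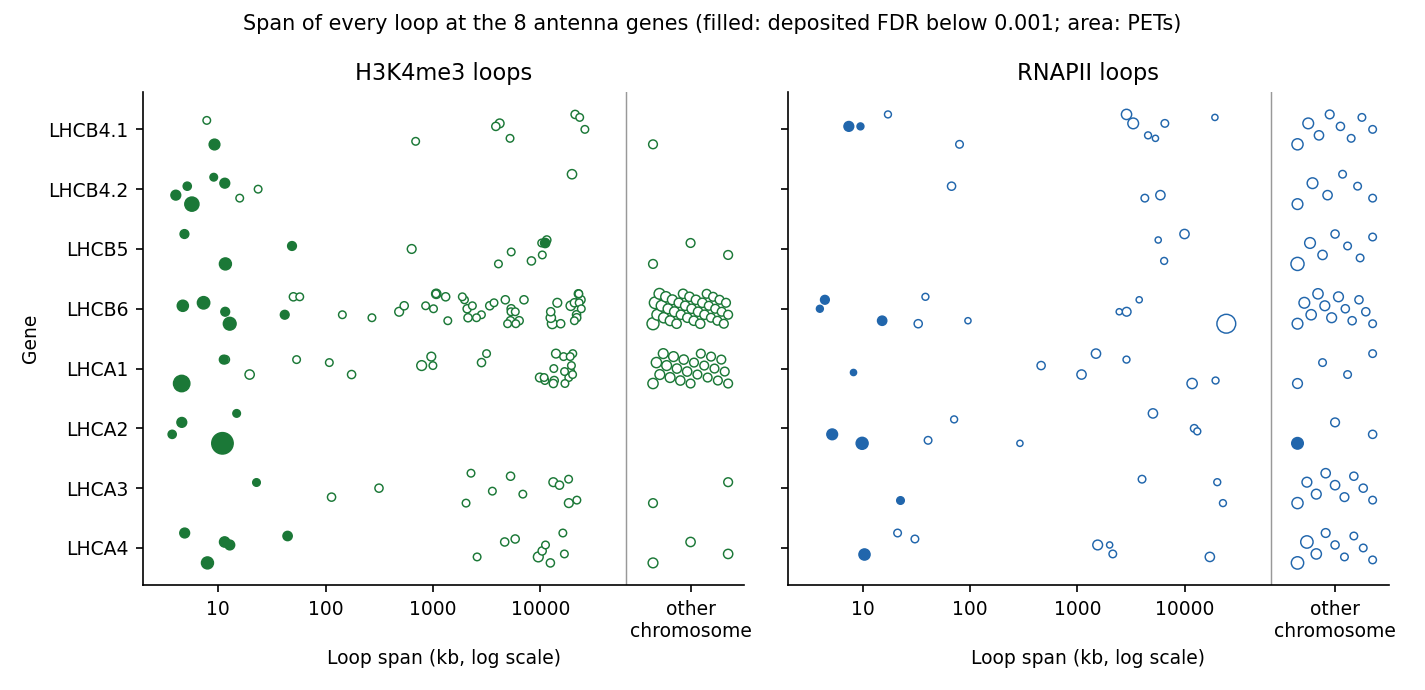
Every H3K4me3 loop (left) and RNAPII loop (right) of the 8 antenna genes (rows) by its span in kb (horizontal axis, log scale), with interchromosomal loops in the band on the right, where horizontal position has no meaning. Point area is proportional to PETs and filled points have a deposited FDR below 0.001. Of the filled points, 26 of 27 in the H3K4me3 panel and 10 of 11 in the RNAPII panel are loops under 100 kb.

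Among the minor antenna genes, *LHCB4.1* had its strongest H3K4me3 loop to a near neighbour, with 12 PETs over 9.17 kb to *LECRKA4.3*. Its next partners were the *CHLH* anchor, 4181 kb away with 8 PETs, and *GLDP2* on chromosome 2 with 8 PETs. *CHLH* encodes the large subunit of magnesium chelatase, which starts the chlorophyll branch of tetrapyrrole synthesis, and *GLDP2* a P protein of glycine decarboxylase, an enzyme of photorespiration. In the RNAPII list the *LECRKA4.3* loop was present again with 10 PETs, while the largest counts lay on far anchors, 13 PETs to AT1G27100, 12 to AT5G11070 and 12 to *UBQ10*, a polyubiquitin gene.

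*LHCB4.2*, the other CP29 gene, had mostly local H3K4me3 contacts, with 7 of its 8 loops and 66 of its 75 PETs under 100 kb. The most PETs, 21, joined it to the anchor of AT3G08920, 5.67 kb away, and 10 PETs each joined it to AT3G08890 and to AT3G08943. The *LHCB4.2* anchor itself also overlapped AT3G08943, which thus lay at both ends of the last of these loops. The 1 far loop, of 9 PETs over 19736 kb, ended at AT3G60750, a transketolase gene. Its RNAPII loops were by contrast 8 of 9 far. The largest were 12 PETs each to *ERD4* and *ERD7*, named for early response to dehydration, and 9 each to *BAM1*, a beta-amylase gene, and *LON2*, a peroxisomal protease gene. *LHCB4.2* was also the gene with the H3K4me1 loop, of 9 PETs over 17.6 kb to AT3G08960. That anchor ended 572 bp upstream of the start site, covered none of the gene body and also held the neighbour AT3G08930.

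*LHCB5* had 15 PETs to AT4G10360, 11.6 kb away, in the H3K4me3 list, then the 9 PETs to AT4G37180 described above and 8 PETs to each of 6 others, of which AT4G10320 lay nearest. An H3K27me3 anchor that overlapped *NAC070* and AT4G10360 lay between *LHCB5* and this partner. It began 0.636 kb beyond the end of the *LHCB5* locus and ended 0.804 kb short of the H3K4me3 partner anchor, so the H3K4me3 and H3K27me3 anchors did not overlap. This was the closest approach of an H3K27me3 anchor to any of the 8 loci. For the other 7 genes that distance was between 9.53 and 108 kb, and the nearest H3K9me2 anchor was 314 kb or farther for all 8. The largest RNAPII counts of *LHCB5* were 18 PETs to the anchor of *WRR4*, an immune receptor gene, and 12 to *RAN2*, a small GTPase gene.

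*LHCB6* had 74 of its 86 H3K4me3 loops over 1 Mb or between chromosomes, with 601 of its 709 PETs. Its strongest loops were still local, 17 PETs to *GOS11*, which encodes a Golgi SNARE, over 12.8 kb and 16 PETs to AT1G15860 over 7.29 kb. They were followed by 15 PETs to the anchor on chromosome 3 that overlaps *CYSC1*, *PIP1A* and *SYP73*, of which *PIP1A* encodes a plasma membrane aquaporin. In the RNAPII list the largest count at any of the 8 genes was 37 PETs between *LHCB6* and the anchor of *MST1*, 24360 kb away on the same chromosome (FDR 0.00806). That anchor had 198 partners, the most in the RNAPII list.

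Among the photosystem I antenna genes, *LHCA1* had 41 of 51 H3K4me3 loops far. Its strongest, 28 PETs, was with AT3G54910, 4.56 kb away, and next were 11 PETs each with *BMY3*, a beta-amylase gene, and *CIA2*, a transcription factor gene that acts on chloroplast protein import, both on chromosome 5. Its RNAPII counts were lower, at most 11 PETs, to *BAM1*.

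*LHCA2* had the loop with the most PETs of all H3K4me3 loops at the 8 genes, 48, to the *CYSC1* and *PIP1A* anchor 10.9 kb away (FDR 2.1e-47). The RNAPII list held the same contact with 15 PETs. *BRH1*, a RING finger gene named for its brassinosteroid response, was the next local partner in both, with 10 H3K4me3 and 12 RNAPII PETs. *LHCA2* thus had few H3K4me3 partners but a single neighbour that took 48 of its 71 PETs.

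*LHCA3* was the opposite case, with no dominant partner: no H3K4me3 loop had more than 8 PETs, and 12 of its 15 loops were far. Its RNAPII loops were led by 13 PETs to *RDUF1*, a RING finger gene on chromosome 3. *LHCA4* had 15 PETs to the anchor of *NOA1* and *ATSMC2*, 7.92 kb away, and 11 PETs to *CDF3*, a DOF transcription factor gene, 11.4 kb away, in the H3K4me3 list. The *LHCA4* anchor of this list also overlapped *ATSMC2*, so *ATSMC2* lay at both ends of the 15-PET loop. The *CDF3* contact was present in the RNAPII list with 13 PETs, after 16 PETs each to *ERD15* and *LON2* on other chromosomes.

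The 2 active lists shared few loops at these genes. Of the 111 RNAPII loops, 9 (8.11%, 3.77 to 14.8%) had both anchors overlapped by those of an H3K4me3 loop, against 6.61% of the RNAPII list, and the 9 matched loops were 4.39% of the 205 H3K4me3 loops (2.03 to 8.17%), against 7.14% of that list. *LHCB6* had 4 of the 9, *LHCA2* had 2, and *LHCB4.1*, *LHCA3* and *LHCA4* had 1 each. Of these, 8 spanned at most 38.3 kb. The remaining one joined *LHCB6* to *PSBO2*, on chromosome 3, which encodes a subunit of the oxygen-evolving complex, with 9 H3K4me3 and 7 RNAPII PETs. The *PSBO2* anchors also overlapped AT3G50810 and *COR413-PM2*.

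No loop in any list joined 2 of the 8 genes, which form 28 pairs. Such joins were rare in general: of all pairs of H3K4me3 anchors over 1 Mb apart or on different chromosomes, each with at least 4 partners, the lowest number among the 8 genes, 0.174% were joined by a loop, and 1.38% of RNAPII anchor pairs with at least 9 partners each. In the H3K4me3 list 6 of 199 distinct partner anchors were met by 2 of the genes, and 5 of the 28 pairs shared at least 1 partner (17.9%), against 2.69% of the same anchor pairs. All 5 pairs included *LHCB6* or *LHCA1*, and the share among anchor pairs was not set at equal partner number. *LHCB6* and *LHCA1* shared AT2G35260 and AT5G25280, *LHCB6* and *LHCA2* the *CYSC1* and *PIP1A* anchor, *LHCB6* and *LHCA3* the anchor of the beta-1,3-glucanase gene *BG_PPAP*, *LHCB5* and *LHCA1* that of *GATL7*, and *LHCA1* and *LHCA4* that of *CLPS3*. The largest share was that of *LHCA2*, 1 of whose 4 partners (25.0%) was also 1 of the 86 of *LHCB6* (1.16%). The CP29 genes *LHCB4.1* and *LHCB4.2* had no partner in common in either list.

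Of 105 distinct RNAPII partners, 5 were shared, over 7 of the 28 pairs (25.0%), against 21.5% of RNAPII anchor pairs. The *UBQ10* anchor was met by 3 genes, *LHCB4.1* with 12 PETs, *LHCB6* with 11 and *LHCA3* with 9, while *LON2*, *UGT73B2*, *BAM1* and AT4G18070 were met by 2 each. No H3K4me3 partner was met by 3 or more of the genes. Shared RNAPII partners had a median of 44 partners of their own, against 14 for those met by a single gene and 2 for all anchors of the list. For H3K4me3 these medians were 16.5, 7 and 2. An anchor with more partners has more chances to be met by any gene, so this order is no finding about the antenna genes.

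Likeness to distant genes was measured by shared H3K4me3 partners, with 5 shared partners required and genes within 20 kb left out. This limit cannot be met by *LHCA2*, with 4 partners, and is hard to meet for the other genes with few partners, so values are given for *LHCB6* and *LHCA1*, the genes with a candidate. The most alike to *LHCB6* was *EGY2*, on chromosome 5, with 5 shared of 25 and 86 partners (Jaccard index 0.0472), tied with 1 other gene. *LHCA1* was nearest to AT1G49640, on chromosome 1, with 5 shared of 43 and 51 partners (0.0562), tied with 2 others. The anchor of AT1G49640 also overlapped AT1G49650 and *CXE5*, and that of *EGY2* also overlapped AT5G05750. Tied genes can therefore stand for a single anchor. The *EGY2* anchor was itself a partner of *LHCB6*, with 9 PETs.

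A small share of loops ended at the other photosynthesis genes of the lists used here. These lists do not hold every photosynthesis gene, so the shares leave out any partner outside them. Against 63 further genes for antenna, photosystem core, electron transport, Rubisco and chlorophyll synthesis, 3 of the 205 H3K4me3 loops (1.46%, 0.303 to 4.22%) ended at such a gene, against 2.17% of all loop ends in the list other than those on the 8 genes. They were *LHCB4.1* to *CHLH* with 8 PETs, *LHCB6* to *PSAK*, a photosystem I core subunit gene, with 7, and *LHCB6* to *PSBO2* with 9. In the RNAPII list 4 of 111 did (3.60%, 0.990 to 8.97%), against 1.94%. Under the common PET minimum none of these 4 loops was kept (0%), while the H3K4me3 share stayed at 1.46%, so no order of the 2 lists can be read from these shares. They were *LHCA3* to *PSBX* and to *PSAO*, with 7 and 5 PETs, *LHCA4* to *LHCB1.3*, a major antenna gene, with 7, and *LHCB6* to *PSBO2* with 7. The *PSBX* anchor also overlapped *RPA1A* and *VPS2.1*, and *VPS2.1* covered most of it. That of *CHLH* also overlapped *PDAT*, and those of *PSBO2* also overlapped AT3G50810 and *COR413-PM2*. The *PSAO* anchor was shared with *DCP1* and AT1G08390, and that of *LHCB1.3* with *NRPA2*. Only the *PSAK* anchor held no other gene, so the other loops cannot be assigned to the photosynthesis gene alone. The deposited FDR of all 7 loops was above 0.001.

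Genes of other lists were met as well. *LHCB6* had H3K4me3 loops to *CPSRP43*, which encodes a subunit of the chloroplast signal recognition particle that delivers LHC proteins to the thylakoid membrane, with 9 PETs, and to *GLK2*, a transcription factor that activates antenna genes, with 8. *LHCA4* had an H3K4me3 loop of 6 PETs to the anchor of *SCR* and *SUA*. *LHCA3* had an RNAPII loop of 5 PETs to the anchor of *LHY*, a morning MYB factor of the clock. This anchor also overlapped *PPa1*. Among the 7 regulators of antenna genes in the list, *LHY* itself had 13 H3K4me3 and 14 RNAPII partners, *CCA1* 5 and 7, *GLK2* 9 and 2 and *GLK1* 2 and 2. *HY5*, *PIF1* and *PIF3* had 3, 4 and 1 H3K4me3 partners and 0 RNAPII loops, and *LHY* also had an H3K27me3 loop of 6 PETs that joined an anchor to itself. None of the 7 had more than a single loop to the 8 genes.

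Other photosynthesis genes set the scale for the 8 genes. The 9 major photosystem II antenna genes had a median of 4 H3K4me3 partners and 10 RNAPII partners, with ranges of 0 to 11 and 1 to 17, and 8 and 9 of them had a loop. The 12 photosystem I core genes had medians of 6.5 and 9.5, and the 11 photosystem II core genes 8 and 9. In the H3K4me3 list the 8 minor and photosystem I antenna genes thus had a higher median, 14.5, than any of these lists, and in the RNAPII list, at 12.5, the difference was smaller. The H3K4me3 ranges overlapped, and *PSAH2* with 25 and *PSBTN* with 28 partners exceeded 6 of the 8 antenna genes. The highest counts among the other listed photosynthesis genes were 70 for *CRD1* and 66 for *CHLH*, both chlorophyll synthesis genes. Both lay between the counts of *LHCB6* and *LHCA1*. *RCA*, of the Rubisco list, had 50, against 51 for *LHCA1*. Relatives outside the 8 genes also had loops: *LHCB4.3* had 0 H3K4me3 and 3 RNAPII partners, *LHCB7* 3 and 0, *LHCA5* 2 and 1, and *LHCA6* 12 and 0.

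**Figure D5:**
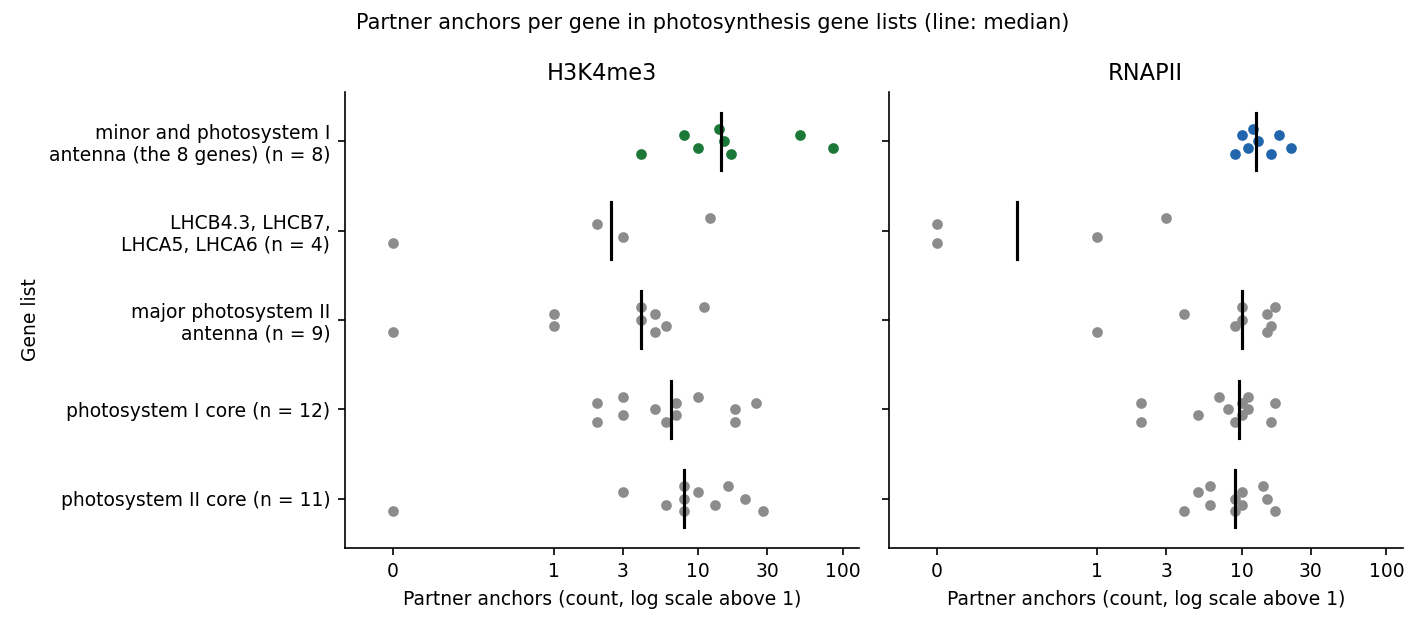
Partner anchors per gene (horizontal axis, count, log scale above 1) in the H3K4me3 list (left) and the RNAPII list (right) for the 8 minor and photosystem I antenna genes and 4 other gene lists (rows), 1 point per gene, with a line at the median. The H3K4me3 median of the 8 genes, 14.5, lies above the medians of 4 to 8 for the major antenna and the core lists.

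Similar copies in the genome could take reads from a gene. The best match of at least 150 bp outside the locus was 85.6% identical over 362 bp between *LHCB4.1* and *LHCB4.2*, 92.4% over 834 bp between *LHCA2* and AT5G28450, a chlorophyll a-b binding family gene, and 97.4% over 229 bp between *LHCA3* and a region at AT2G19360. *LHCB5*, *LHCB6*, *LHCA1* and *LHCA4* had no match of that length. Neither AT5G28450 nor AT2G19360 had a loop in any of the 5 lists.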

How the data were processed

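The members and the gene lists were chosen with earlier results of these data known. Following the methods given, the authors fixed shoots with cross-linkers, enriched chromatin with each antibody, joined DNA ends by proximity ligation and used ChIA-PET Tool to filter linkers, map reads to TAIR10, remove redundant pairs and call clusters between ChIP-seq peaks given as anchors. No source used here gives the aligner settings of this step. They pooled replicates, then retained loops under an FDR of 0.05 that reached a PET minimum set by depth. The deposited PET and tag counts are whole numbers with no normalization. The deposited p-values and FDR values, and the −log10 columns, are the authors' own. The FDR was used only to filter loops, and the −log10 values were not used further. The study gives the mapped pairs per library, which were not used here. Called PETs do not measure that depth.

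Deposited positions were read as 1-based TAIR10 coordinates and set against the RefSeq TAIR10.1 annotation, whose 5 nuclear chromosomes were long enough to hold every anchor. Named partners were the 3 with the most PETs per gene and list, any from the 11 fixed lists, those met by 3 or more genes, and the gene most alike by shared H3K4me3 partners. An anchor was named by the gene that covered most of it, ties by gene ID, and partners shared by 2 genes were named after their values were seen. Motifs and the promoters shown were also chosen then. Shares have exact Clopper-Pearson 95% intervals, partner counts exact Poisson intervals and medians order-statistic intervals, and the limit for a count of 0 is 3 counts. No test between groups was possible without replicate values. Overlap and partner counts were tested on simulated loops. Matches to other loci came from blastn 2.17.0, all other values from Python 3.11.15 with pandas 2.3.3 and scipy 1.17.1. Alternatives were a 0.5 overlap, a promoter (from 1 kb before the start site to 0.5 kb after it) in place of the locus, a common PET minimum of 6 within and 8 between chromosomes, an FDR below 0.001, and loops of an anchor with itself left out.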

Additional observations from a re-analysis of the deposited data

How the results depend on the processing

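Of 95 values (19 results under 5 alternatives), 80 moved by less than their interval or by less than 1.5 times and 15 moved more, 12 of them under the deposited FDR below 0.001, which keeps fewer loops by construction. Under it the H3K4me3 list kept 27 loops at the 8 genes with 336 PETs, a median span of 10.9 kb and 3 hubs. Its interchromosomal share was 0%, as was its share to the listed photosynthesis genes. The RNAPII list kept 11 loops with 101 PETs, a median span of 8.82 kb and 0 hubs. Of these loops 9.09% were interchromosomal and 0% ended at the listed photosynthesis genes. *LHCB6* then had 5 H3K4me3 partners and *LHCA1* had 2, so their lead over the other 6 genes (1 to 5 partners) was not seen. With the common PET minimum the RNAPII list kept 62 loops at the 8 genes and 0% to the listed photosynthesis genes. With 0.5 of the anchor or locus covered, 0 of the 8 genes had an H3K4me1 loop. Many of the 80 values could not have moved, so their number is no measure of robustness. No loop at the 8 genes joined an anchor to itself, so all 19 values with such loops left out were fixed. The common PET minimum equals that of the H3K4me3 and H3K4me1 lists. Counts of 0 cannot rise under a filter that only removes loops. No paired analysis was possible because each list pools its replicates.

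Limits: a partner count rests on tags, anchor width and the PET minimum as well as on contacts, neighbours within an anchor cannot be separated, and loops are pooled over the cell types of the shoot.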
